A study of Mus musculus with 32 samples.

Results

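Cubn, Amn, Lrp2, Dab2, Fcgrt and Prdm1 are 6 genes of protein uptake in the neonatal enterocyte, chosen by their symbols. They are 6 of the 23236 gene symbols in the series, and each had exactly 1 valid record in each of the 32 libraries. The enterocytes of newborn mammals take up whole proteins from milk at their apical surface and break them down in large lysosomal vacuoles. Cubilin (Cubn) is the receptor that binds intrinsic factor with vitamin B12 and many other proteins, amnionless (Amn) anchors it in the membrane, and megalin (Lrp2) is the giant receptor that works beside them. Dab2 is the clathrin adaptor that links these receptors to the coated pit. Fcgrt is the heavy chain of the neonatal Fc receptor, which carries maternal immunoglobulin G from milk across the epithelium. Prdm1 (Blimp-1) is a transcriptional repressor that in the mouse keeps the suckling state of the enterocyte until weaning.

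The libraries hold total RNA of dissected gut, from wild-type mice or from homozygotes of a targeted deletion (percc1-/- in the labels). The allele replaced 1512 bp by a loxP site, a neomycin cassette having been removed by Cre in W4/129S6 embryonic stem cells, and all mice had a mixed 129SvEv and C57BL/6 background. Each genotype gave 1 library per region and stage, so that 16 pairs were formed. The top part of the intestine was taken at P1, P5 and P15 and the bottom part at P1, P5, P10 and P20, where P is the postnatal day. Whole stomach was taken at P1 and P5, and the bottom part of the stomach at P10, P15 and P20. Colon with rectum came from P1, while colon and rectum were separate at P5. A last pair was embryonic whole gut of E14.5. Whether a library is 1 animal or a pool, and whether regions of a stage share an animal, is not stated. The p-values below therefore measure the spread between these libraries only.

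The unit throughout is FPKM, fragments per kilobase of transcript scaled to the mapped fragments of the library, so that transcript length is taken into account. The values were rescaled between libraries by factors of 0.864 to 1.38. The tables hold no fragment counts, so the depth is known only through the FPKM bounds deposited with each value. The top of the scale was compressed, with at most 4 named genes above 100 FPKM in any library. The part this had in the values, and in ranks and ratios between genes, was not tested. Symbols held 16.8 to 60.2% of the FPKM sum of a library, and the rest lay in records with no symbol. No library (0 of 32) held a record named Percc1, so the targeted gene could not check the genotype labels here. The percc1-/- stomach library of P1 stood apart. It had 15.8 FPKM of Fabp6, the bile acid binding protein of the lower small intestine, and 8.22 of lactase (Lct), against 2.01 and 1.38 in its wild-type partner. Gata4 was at 2.60 against 11.3. Fabp6 was not confined to small intestine here, with 11.2 FPKM in the wild-type and 23.2 in the percc1-/- colon with rectum of P1. At P1 Fabp6 and Gata4 in the percc1-/- intestine ran against the part labels. The top library had 17.2 FPKM of Fabp6 and the bottom library 2.33, where the wild type had a listed 0 and 5.42. Gata4 was at 12.7 in the top and 19.9 in the bottom, where the wild type had 16.4 and 11.8. It was not particular to upper intestine, with 31.1 FPKM in the wild-type bottom stomach of P20. The same top library had 30.3 FPKM of the gastric proton pump gene Atp4a against 0.19 in the wild type. At P5 the percc1-/- bottom intestine had 4.69 FPKM of Atp4a against 0.304, and the percc1-/- colon had 7.99 against 0.327. That colon library also had 3.23 of Gata4 and 14.6 of Lct, against 0.283 and 3.19 in the wild type. Exocrine pancreas markers summed to 92.3 and 116.7 FPKM in the wild-type top intestine at P1 and P5, against 7.59 and 18.7 in the percc1-/- libraries.

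Promoter sequences of the receptor complex genes are shown because Cubn and Amn, whose proteins form the cubilin receptor, also had nearly the same profile over regions, whereas Lrp2 and Dab2 did not share it. RefSeq windows (GRCm38.p6) were found for all 6 genes, 7 windows in all, and the 250 bases before the start site were read. They were searched on both strands for GTTAAT, a partial site of the enterocyte factor HNF1, and for CAAAGTC, a core of HNF4 sites. The other searches were for TTTATG, a core of CDX sites, for AGATAA, which GATA factors bind, and for GTGAAAG, a core of PRDM1 sites. The windows printed are Cubn at chr2:13491877-13492126 (minus strand), Amn at chr12:111270846-111271095 (plus strand), Lrp2 at chr2:69586030-69586279 (minus strand) and the downstream one of 2 Dab2 windows at chr15:6386498-6386747 (plus strand). Each is written 5′ to 3′ in the direction of transcription, with a motif match in capitals.
Cubn: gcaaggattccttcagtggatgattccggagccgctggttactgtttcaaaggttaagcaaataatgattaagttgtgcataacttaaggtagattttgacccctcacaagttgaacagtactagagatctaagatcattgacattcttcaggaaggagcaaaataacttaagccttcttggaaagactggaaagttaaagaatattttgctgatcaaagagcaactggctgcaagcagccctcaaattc
Amn: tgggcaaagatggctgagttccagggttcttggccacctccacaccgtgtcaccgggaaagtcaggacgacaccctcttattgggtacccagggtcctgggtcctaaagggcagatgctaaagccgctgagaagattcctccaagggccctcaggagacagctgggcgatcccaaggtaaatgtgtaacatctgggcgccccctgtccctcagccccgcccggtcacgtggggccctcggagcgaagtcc
Lrp2: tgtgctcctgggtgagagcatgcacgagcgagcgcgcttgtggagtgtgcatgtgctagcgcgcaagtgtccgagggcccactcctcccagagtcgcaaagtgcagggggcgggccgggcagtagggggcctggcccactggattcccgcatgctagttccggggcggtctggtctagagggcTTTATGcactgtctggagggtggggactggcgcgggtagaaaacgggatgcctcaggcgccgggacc
Dab2: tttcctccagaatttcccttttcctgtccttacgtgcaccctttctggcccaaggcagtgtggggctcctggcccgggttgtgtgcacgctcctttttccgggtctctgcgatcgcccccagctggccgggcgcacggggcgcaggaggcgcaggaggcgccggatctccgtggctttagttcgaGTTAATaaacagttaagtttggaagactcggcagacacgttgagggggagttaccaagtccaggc
Lrp2 held TTTATG from 67 bases before its start site and this Dab2 window held GTTAAT from 65 bases before it. Such matches are common, in 10.8% and 6.43% of 32851 windows of the same length. The Cubn and Amn windows held none of the 5 motifs, nor did those of Fcgrt, Prdm1 or the other Dab2 window. The base composition of the Cubn and Amn windows differed, with 39.6% G and C in Cubn and 61.2% in Amn.

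By median level, small intestine stood highest among the 3 organs for 5 of the 6 genes, and Lrp2 had nearly equal medians in small intestine (1.55 FPKM) and large bowel (1.57). Over 14 small intestine libraries Cubn ranged from 17.7 to 45.2 FPKM with a median of 28.4, and over 10 stomach libraries from 0.184 to 3.39 with a median of 0.394. The 2 libraries of colon with rectum had 29.0 (wild type) and 24.3 (percc1-/-), the colon at P5 had 18.8 and 17.2, and the rectum at P5 had 2.21 and 1.54. The E14.5 whole gut stood at 3.31 and 2.2. Colon and small intestine overlapped, since 3 of the 4 libraries with colon lay within the range of the small intestine. Rectum and whole gut lay below both and above most stomach libraries, but not above the percc1-/- stomach of P1 (3.39). In the percc1-/- bottom intestine at P20 Cubn ranked 82 from the top among named genes.

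By organ, Amn followed the same order at a lower level. In colon with rectum it was lower than in colon at P5, unlike Cubn. It ranged from 10.9 to 29.2 FPKM in small intestine (median 20.4) and from 0.0355 to 4.81 in stomach (median 0.221). Colon at P5 had 12.5 in the wild type and 11.4 in percc1-/-, colon with rectum 9.71 and 7.06, and rectum 1.32 and 0.483. Of the small intestine libraries, only the wild-type top intestine of P15 (10.9) lay within the range of the large bowel. The ratio of Cubn to Amn stayed between 0.86 and 2.52 in the small intestine. In colon with rectum it was 2.99 (wild type) and 3.44 (percc1-/-).

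Lrp2 was the lowest of the 6 in small intestine, from 0.0537 to 10.5 FPKM, and it varied the most between libraries there. It reached 3.44 in colon with rectum (wild type), 3.05 in the percc1-/- whole gut and 1.56 in stomach. The kidney tubule, another site of megalin, left little trace: the summed level of its 5 markers was at most 0.551 FPKM in any small intestine library, and Slc5a2 was listed at 0 in 32 of 32 libraries. In whole gut the sum was 0.787 in percc1-/-, the highest of the series, against 0 in the wild type, and its part in the Lrp2 values there was not tested.

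Fcgrt had the highest median of the 6 genes in small intestine. It ranged from 19.9 to 74.6 FPKM in small intestine (median 55.8) and was the gene ranked 2 of all named genes in its highest library, the wild-type top intestine at P15. Stomach ranged from 10.6 to 24.6 and large bowel from 16.5 to 28.2, so that all 3 organs expressed it and only the wild-type bottom intestine of P20 fell into the range of the others. Dab2 was as widespread, with 9.60 to 32.3 FPKM in small intestine, 10.2 to 16.7 in large bowel, 7.12 to 15.5 in stomach and 15.6 to 17.0 in whole gut. Prdm1 ranged from 3.31 to 16.7 in small intestine, from 1.87 to 9.53 in stomach and from 1.52 to 8.18 in large bowel. Dab2 and Fcgrt are also expressed by macrophages and endothelium. Summed macrophage markers (6 of 9 with a value in every library) were 33.4 to 63.9 FPKM in small intestine and 35.0 to 64.0 in stomach, and their part in these levels was not tested. In bulk tissue, fewer cells of a type and less RNA per cell cannot be told apart.

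**Figure D1:**
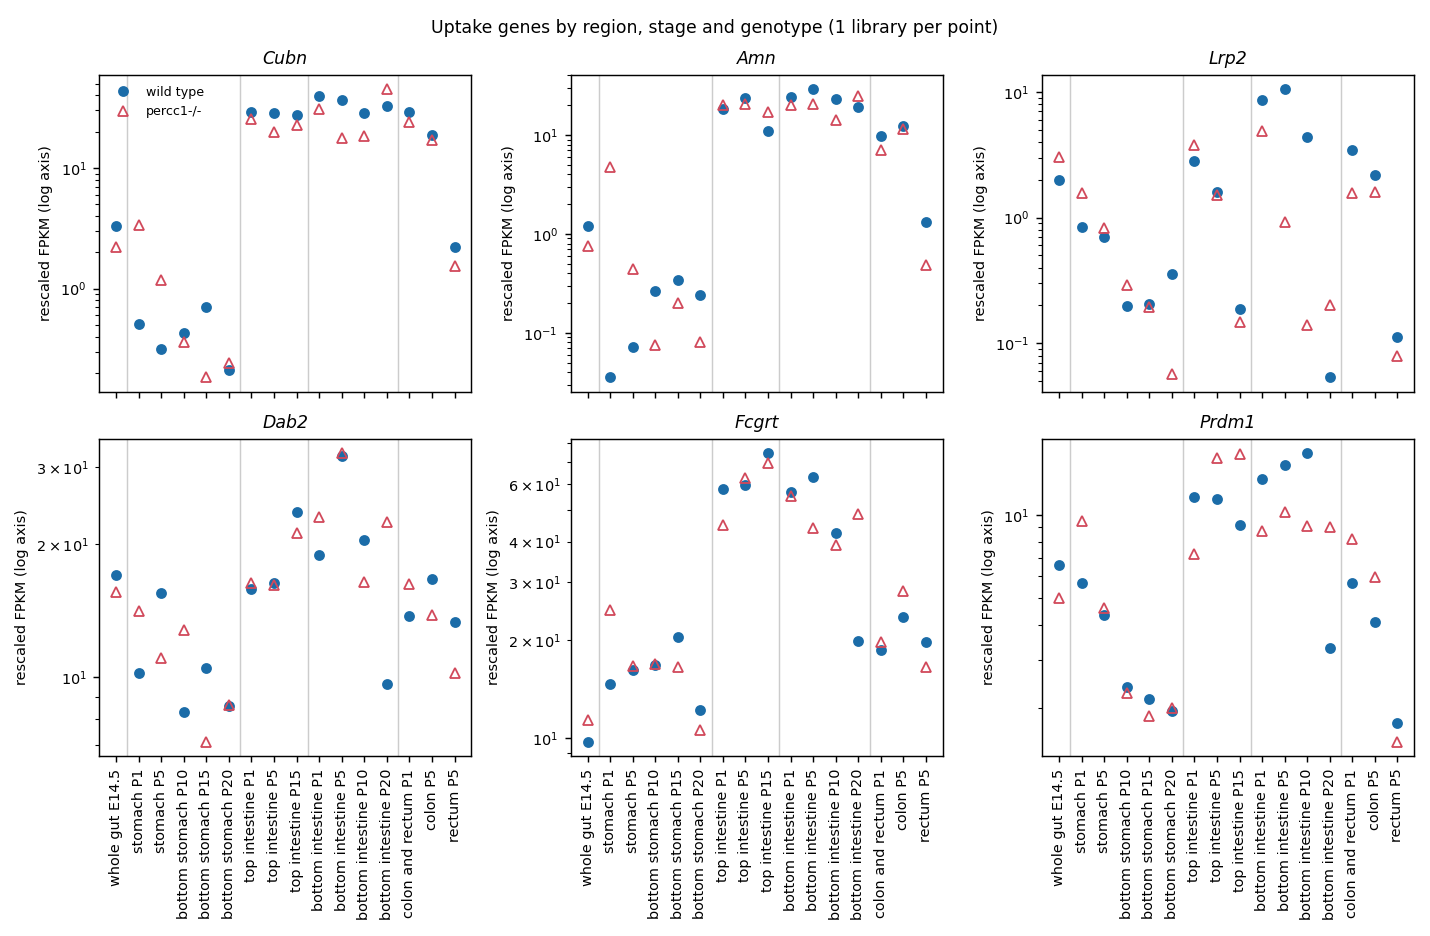
Rescaled FPKM of each gene (vertical axis, logarithmic) in the 16 region and stage pairs (horizontal axis), with 1 point per library, filled circles for wild type and open triangles for percc1-/-. Cubn and Amn lie at 17.7 to 45.2 and 10.9 to 29.2 FPKM in small intestine and mostly under 1 FPKM in stomach, while Dab2 and Fcgrt are present everywhere.

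The comparison of small intestine (8 libraries) with stomach (4 libraries) at P1 and P5 put sizes on these differences, with stage and genotype as covariates. All 6 genes were called higher in small intestine by limma, with a call at a Benjamini-Hochberg adjusted p under 0.05 over all 13166 genes tested. The background was high, since 43.7% of genes were called in either direction and 2639 of them higher. Differences are given as log2(FPKM + 1) with standard errors. Cubn was higher by 3.77 ± 0.29 (adjusted p = 6.41e-06), from 17.7 to 39.8 FPKM with a median of 28.7 in small intestine against 0.318, 0.506, 1.18 and 3.39 in stomach. Amn was higher by 3.72 ± 0.38 (adjusted p = 2.71e-05), from 18.4 to 29.2 against 0.0355, 0.0713, 0.44 and 4.81. The groups did not overlap for either gene, as was so with small intestine above for 12.7% of genes, and the highest stomach value of both came from the percc1-/- library of P1 that also held Fabp6 and Lct. With the wild-type libraries alone, the differences were 4.60 for Cubn and 4.55 for Amn. With the unnamed records that lie within the gene added, the Cubn difference was 6.81 and that of Prdm1 1.57 (limma adjusted p = 3.16e-05 and 0.014).

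Fcgrt was higher in small intestine by 1.59 ± 0.14 (adjusted p = 1.48e-05), with 44.2 to 63.1 FPKM against 14.7 to 24.6 and no overlap. Prdm1 was higher by 0.87 ± 0.23 (adjusted p = 0.0116) with 7.24 to 16.01 against 4.36 to 9.53, and the groups overlapped. Without the wild-type stomach of P5 its adjusted p was 0.0544. Dab2 was higher by 0.67 ± 0.21 (adjusted p = 0.0275), with 15.9 to 32.3 against 10.2 to 15.5. Its adjusted p was 0.0503 without the percc1-/- bottom intestine of P1, 0.0903 without the wild-type stomach of P1, 0.104 without the percc1-/- stomach of P5 and 0.127 in wild-type libraries alone. Lrp2 was higher by 1.18 ± 0.42 (adjusted p = 0.0424), with 0.925 to 10.5 against 0.707 to 1.56, and the groups overlapped. It lost the call in 8 of 12 fits that left out 1 library, namely any stomach library, either library of bottom intestine at P1 and the percc1-/- top intestine at P1 or P5, with adjusted p up to 0.158. The Lrp2 call was also lost in 3 of 7 other settings of the limma fit, with adjusted p up to 0.111.

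Many genes that work downstream of the receptors were called higher too. Of 18 lysosomal digestion genes tested, 16 were called higher in small intestine than in stomach and none (0) lower, with a median difference of 0.87 against -0.03 over all genes. Among them were Mcoln3, a lysosomal cation channel (3.47 ± 0.35, limma adjusted p = 2.57e-05), and the sialidase Neu1 (1.98). Of 20 apical endocytosis partners, 12 were called higher and 3 lower, with a median of 0.21. The endosomal chloride transporter Clcn5 was higher by 1.27 ± 0.11 and the recycling protein Ehd1 by 0.85, whereas plasmolipin (Pllp) was lower by 1.07 (log2 difference -1.07, adjusted p = 0.00305). Both partners of immunoglobulin transport were called higher: the polymeric immunoglobulin receptor Pigr by 3.20 and B2m, the light chain of the Fcgrt receptor, by 0.66. Of 6 genes of vitamin B12 handling, 2 were called higher and 4 lower. The transport protein Tcn2 was higher in small intestine (1.18 ± 0.07), while Gif, the gastric intrinsic factor whose complex is the ligand of cubilin, was lower (-3.52 ± 0.61, adjusted p = 0.000884). The epithelium differed as well, since 7 of 7 brush border markers and 4 of 4 tested epithelium markers were called higher, and the part of that in the differences above was not tested.

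Against the large bowel (6 libraries at P1 and P5), bottom small intestine (4 libraries of the same stages) had 3 of the 6 genes called higher in limma, where 12.5% of 13128 genes were, and 26.0% were called in either direction. The macrophage marker Csf1r was also called higher (0.99 ± 0.11), as the 1 of 6 tested macrophage markers, and its part in the Dab2 and Fcgrt values was not tested. Fcgrt was higher by 1.35 ± 0.16 (adjusted p = 0.00131) with 44.2, 55.0, 56.7 and 63.1 FPKM against 16.5 to 28.2. Dab2 was higher by 0.88 ± 0.18 (adjusted p = 0.0083) with 18.9 to 32.3 against 10.2 to 16.7. When unnamed records lying within the gene were added, the Dab2 difference was 0.46 (adjusted p = 0.237). Prdm1 was higher by 1.27 ± 0.36 (adjusted p = 0.0312) with 8.72 to 15.1 against 1.52 to 8.18. The groups did not overlap for any of these 3, as was so with bottom intestine above for 9.43% of genes. With unnamed records added the Prdm1 difference was 2.57 and that of Cubn 2.62, and Cubn still did not pass (adjusted p = 0.0836). The Prdm1 call was lost without the wild-type colon with rectum (adjusted p = 0.0709), the wild-type bottom intestine of P1 (0.0697), or the percc1-/- (0.0738) or wild-type (0.145) bottom intestine of P5.

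The receptor genes in large bowel were split between colon and rectum. Cubn did not pass (1.22 ± 0.65, adjusted p = 0.198), nor did Amn (1.93 ± 0.63, adjusted p = 0.0519) or Lrp2 (1.31 ± 0.44, adjusted p = 0.0562). Amn did not overlap between the groups, with 20.2 to 29.2 FPKM in bottom intestine against 0.483 to 12.5. Without the 2 rectum libraries the Amn difference was 1.15 with an adjusted p of 0.00267, and Cubn stood at 0.43 (adjusted p = 0.0696). Amn also passed without the percc1-/- (adjusted p = 0.0256) or the wild-type (0.0397) colon of P5. Lrp2 passed without the percc1-/- colon of P5 (0.0281) or the percc1-/- bottom intestine of P5 (0.026). In 1 of 7 other settings of the limma fit Lrp2 also passed (adjusted p = 0.0251). The percc1-/- colon of P5 is the library that held Atp4a, Gata4 and Lct, whose part in this comparison was not tested. Of the 18 lysosomal digestion genes tested, 17 were called higher in bottom intestine and none (0) lower, with a median of 0.68 against -0.03 over all genes. Among them the cathepsins Ctsh and Ctsl were higher by 1.25 and 0.996. Enterocyte brush border markers were called higher as well, 7 of 7 with a median of 1.30, and their part in the members' differences was not tested.

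Between the bottom and top parts of the small intestine at P1 and P5, limma called 0 of the 6 genes, 1 gene passed at an unadjusted p under 0.05, and 0.00782% of 12786 genes were called. That gene was Dab2. It had 18.9 and 31.7 FPKM in the wild-type bottom libraries of P1 and P5 and 23.1 and 32.3 in the percc1-/- ones. The top libraries had 15.9, 16.3, 16.4 and 16.2 FPKM. Both bottom libraries of P5 were high and no bottom library fell to the level of the top (log2 difference 0.65 ± 0.13, adjusted p = 0.639). For 1.16% of genes all bottom libraries lay above all top ones. With unnamed records added the sign turned (-0.19, adjusted p = 0.928). Lrp2 was at 8.66 and 10.5 FPKM in the wild-type bottom libraries and at 4.91 and 0.925 in the percc1-/- ones, against 1.51 to 3.76 in the top (0.86 ± 0.44, adjusted p = 0.808). Cubn, Amn, Fcgrt and Prdm1 differed by 0.22, 0.17, -0.04 and 0.05, with overlapping groups. Without the percc1-/- libraries of P1, whose Fabp6 and Gata4 ran against the labels, again 0 of the 6 genes were called by limma, with Dab2 at 0.70 (adjusted p = 0.31) and Lrp2 at 1.04 (adjusted p = 0.546).

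**Figure D2:**
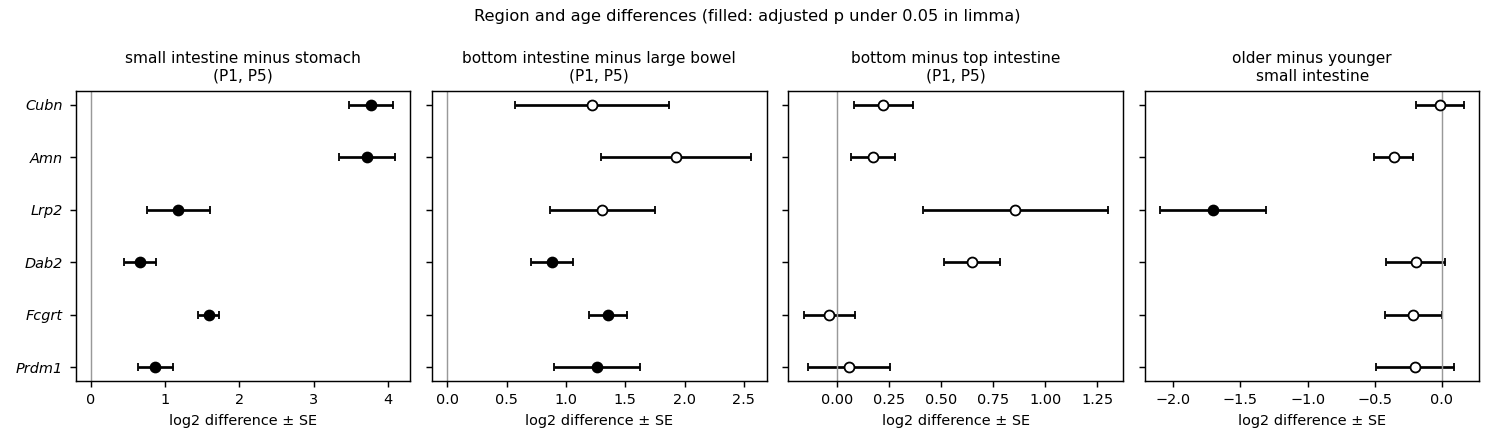
Log2 difference with its standard error (horizontal axis) for each gene (vertical axis) in 4 comparisons, filled where the limma adjusted p was under 0.05. All 6 genes were higher in small intestine than stomach, 3 were higher in bottom intestine than large bowel, none differed between bottom and top by this test, and Lrp2 was lower in older small intestine.

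Older small intestine (P10, P15 and P20, 6 libraries) was compared with younger (P1 and P5, 8 libraries), the fit holding intestinal part and genotype as terms. Lrp2 was the 1 gene of the 6 called, and it was lower; 2.47% of 12772 genes were called lower and 5.93% in either direction. In the wild-type bottom intestine, Lrp2 stood at 8.66 FPKM at P1, 10.5 at P5, 4.34 at P10 and 0.0537 at P20. In the percc1-/- bottom intestine the values were 4.91, 0.925, 0.14 and 0.203. In the top part the wild-type values were 2.81, 1.59 and 0.186 at P1, P5 and P15, and the percc1-/- values 3.76, 1.51 and 0.147. Of the older libraries, 5 were under 0.21 FPKM, below every younger library, and the wild-type bottom intestine of P10 overlapped with the younger group. The difference was -1.70 ± 0.39 on the log2(FPKM + 1) scale (adjusted p = 0.0255).

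The direction of the Lrp2 difference was the same in every fit that tested it, but the call was lost in 5 of 14 fits that left out 1 library. These were the fits without the percc1-/- (adjusted p = 0.0564) or wild-type (0.0662) bottom intestine of P1, the percc1-/- bottom intestine of P20 (0.0545), the wild-type bottom intestine of P5 (0.059) and the wild-type top intestine of P15 (0.0844). With a pseudocount of 0.1 in place of 1 the difference was -3.24 (adjusted p = 0.0151). The call was also lost without P20 (-1.39, adjusted p = 0.0977), in the bottom part alone (-1.84, adjusted p = 0.216) and in wild-type libraries alone (-1.85, adjusted p = 0.132).

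Neither subunit of the cubilin receptor passed this test. Cubn had a median of 27.9 FPKM in older and 28.7 in younger libraries (log2 difference -0.01 ± 0.18, adjusted p = 0.972), with 32.8 (wild type) and 45.2 (percc1-/-) in the bottom intestine at P20. Amn had medians of 18.1 and 20.5 (-0.36 ± 0.15, adjusted p = 0.161). The ratio of Cubn to Lrp2 was 4.60 in the wild-type bottom intestine at P1 and 3.47 at P5, 6.52 at P10 and 611 at P20. Dab2, Fcgrt and Prdm1 differed by -0.19, -0.21 and -0.20, and none passed (adjusted p = 0.644, 0.601 and 0.724). For each of these 3 genes the wild-type bottom intestine of P20 was the lowest of the 14 small intestine libraries.

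Of 18 lysosomal digestion genes, 5 were called lower in the older intestine and 0 had a positive difference, with a median of -0.40 against 0.0047 over all genes. Ctsh was at -0.62 ± 0.15 (adjusted p = 0.0262), and Hexa and Ctsd at -0.44 and -0.38. Endothelium markers had a median of -0.41 with 2 of 6 called lower (Emcn at -0.51 and Cdh5 at -0.43), and macrophage markers a median of -0.30 with 1 of 6 positive and 0 called. Afp, from the list of liver markers, was called lower (-1.94). It reached 47.2 FPKM in small intestine, where albumin (Alb), of the same list, was at most 2.99. The part of these markers in the values above was not tested. Of the 20 endocytosis partners 3 were called lower, Rab11a, Clcn5 and Ehd1 (-0.53, -0.52 and -0.38). The 3 weaned enterocyte genes were all called higher: sucrase-isomaltase (Sis) by 2.77 ± 0.50, the arginase Arg2 by 2.32 and trehalase (Treh) by 1.999. Of the immunoglobulin transport partners Pigr was called higher (0.61 ± 0.16, adjusted p = 0.0384). Of the suckling enterocyte genes 3 were tested and 0 called.

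**Figure D3:**
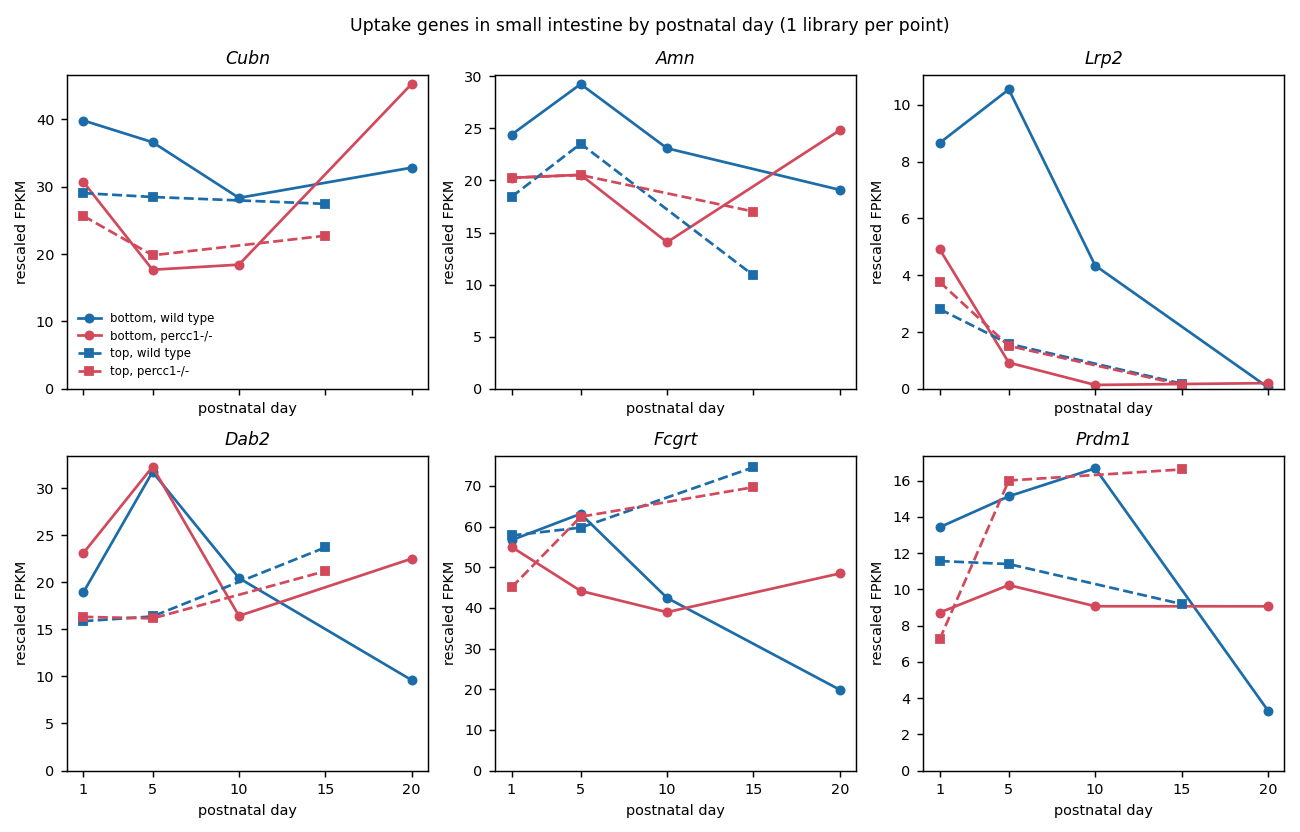
Rescaled FPKM of each gene (vertical axis, from 0) by postnatal day (horizontal axis) in the bottom (solid lines, circles) and top (dashed lines, squares) intestine of wild-type (blue) and percc1-/- (red) mice, 1 library per point. Lrp2 is near 0 at P15 and P20, Cubn stays at 17.7 FPKM or above, and at P20 the wild-type bottom intestine is low for Dab2, Fcgrt and Prdm1 (9.60, 19.9 and 3.31 FPKM) beside the percc1-/- library (22.5, 48.5 and 9.07).

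The genotype comparison asked how the deletion moved these genes. With the pair as a block, limma called 0 of the 6 genes over the 7 small intestine pairs, with 1 gene at an unadjusted p under 0.05, and 0.117% of 12772 genes were called. That gene was Cubn. Its percc1-/- libraries ranged from 17.7 to 45.2 FPKM with a median of 22.7, and its wild-type libraries from 27.4 to 39.8 with a median of 29.0. The percc1-/- value was lower in 6 of 7 pairs and higher in the bottom intestine at P20. The mean log2 difference was -0.35 ± 0.14 SE (adjusted p = 0.473), and an exact sign-flip permutation test over the 7 pairs gave p = 0.0938. The deposited FPKM bounds of the 2 libraries did not overlap in 7 of 7 pairs, but those bounds hold no spread between mice. Without P20 the difference was -0.48 (adjusted p = 0.14), and without both pairs of P1 it was -0.38 (adjusted p = 0.81). With unnamed records added it was -1.82 (adjusted p = 0.16).

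Lrp2 had the largest single differences between genotypes in small intestine, both in its bottom part. At P5 the wild type had 10.5 FPKM and percc1-/- 0.925, and at P10 the values were 4.34 and 0.14. At P1 they were 8.66 and 4.91, and at P20 both were near 0 (0.0537 and 0.203). In the top intestine the libraries of a pair were close, at 2.81 and 3.76 (P1), 1.59 and 1.51 (P5) and 0.186 and 0.147 (P15). Over the 7 pairs the difference was -0.73 ± 0.37 (adjusted p = 0.553, lower in 5 of 7), and it was -0.42 without the bottom pair of P5 and -0.48 without that of P10. The mean difference in log2(FPKM + 1) was -1.33 over the 4 bottom pairs (SD 1.30) and 0.08 over the 3 top pairs (SD 0.21). This split was made after the values were seen and was not tested. At P5, Cubn and Lrp2 were both lower by at least 1 log2 unit in percc1-/-, as were 1.69% of genes in that pair, and at P10 Lrp2 was, with 2.86% of genes. The percc1-/- bottom library of P5, which also held Atp4a, had less Lct (27.2 against 43.8 FPKM) and B2m (27.5 against 38.1). Fabp6 was higher in it (29.6 against 21.3), and 4.25% of genes were higher by at least 1 log2 unit. The part of this in the Cubn and Lrp2 differences was not tested.

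At P20 the bottom intestine moved the other way for the remaining genes. Dab2 was at 22.5 FPKM in percc1-/- against 9.60 in the wild type, Fcgrt at 48.5 against 19.9 and Prdm1 at 9.07 against 3.31. These were folds of 2.34, 2.44 and 2.74, from 1 library of each genotype and with no test, and 2.49% of genes in this pair were higher by at least 1 log2 unit. Cubn and Amn were also above the wild type there, at 45.2 against 32.8 and 24.8 against 19.1. The percc1-/- levels of the 3 genes lay within the range of the earlier stages, and the wild-type levels lay below all other small intestine libraries. Other genes of the suckling intestine showed the same order. Mcoln3 was at 20.7 in percc1-/- against 1.25, Ass1, an enzyme of arginine synthesis, at 18.3 against 6.00, Neu1 at 40.2 against 18.2, and summed lysosomal digestion genes (17 of 20 with a value in every library) at 464 against 289 FPKM. Sis, Treh and Arg2 were lower in percc1-/-, at 46.0 against 58.2, 7.95 against 17.1 and 7.69 against 17.2. Brush border markers summed to 410 in percc1-/- and 444 FPKM in the wild type, and macrophage markers to 38.4 and 37.0. Such sums can hide opposite changes of single markers. Apoa4, within the brush border sum, was at 72.0 in percc1-/- against 54.4. The part of cell composition in the differences of this pair was not tested.

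At the stages before, the order of the genotypes was mixed. At P10 the percc1-/- bottom intestine had less Prdm1 (9.07 against 16.7 FPKM), Amn (14.1 against 23.1) and Cubn (18.4 against 28.3), and less Mcoln3 (12.9 against 30.6). It had more Sis (15.05 against 2.40), Treh (2.66 against a listed 0) and Arg2 (5.13 against a listed 0). Neu1 (27.4 against 20.1) and Fabp6 (41.0 against 12.3) were also higher in it, and the part of this in the members' differences was not tested. At P15 the percc1-/- top intestine had more Prdm1 (16.6 against 9.19), more Amn (17.0 against 10.9) and more Mcoln3 (17.0 against 0.868), as at P20. There Ass1 was at 25.8 against 16.5 and Mamdc4 at 61.7 against 47.9. Dab2 (21.2 against 23.7) and Fcgrt (69.7 against 74.6) were slightly lower in that percc1-/- library, unlike P20. Sis (18.3 against 8.44), Treh (10.6 against 6.36) and Arg2 (6.19 against 3.32) were higher there, also unlike P20. The difference of the genotype effect between older and younger pairs was tested in limma. It called 0 of 6 members and 0 of 12772 genes (0%), with 0 members and 749 genes at an unadjusted p under 0.05. The estimates were 0.71 ± 0.49 for Prdm1 (adjusted p = 0.845) and 0.55 ± 0.33 for Fcgrt (adjusted p = 0.832).

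**Figure D4:**
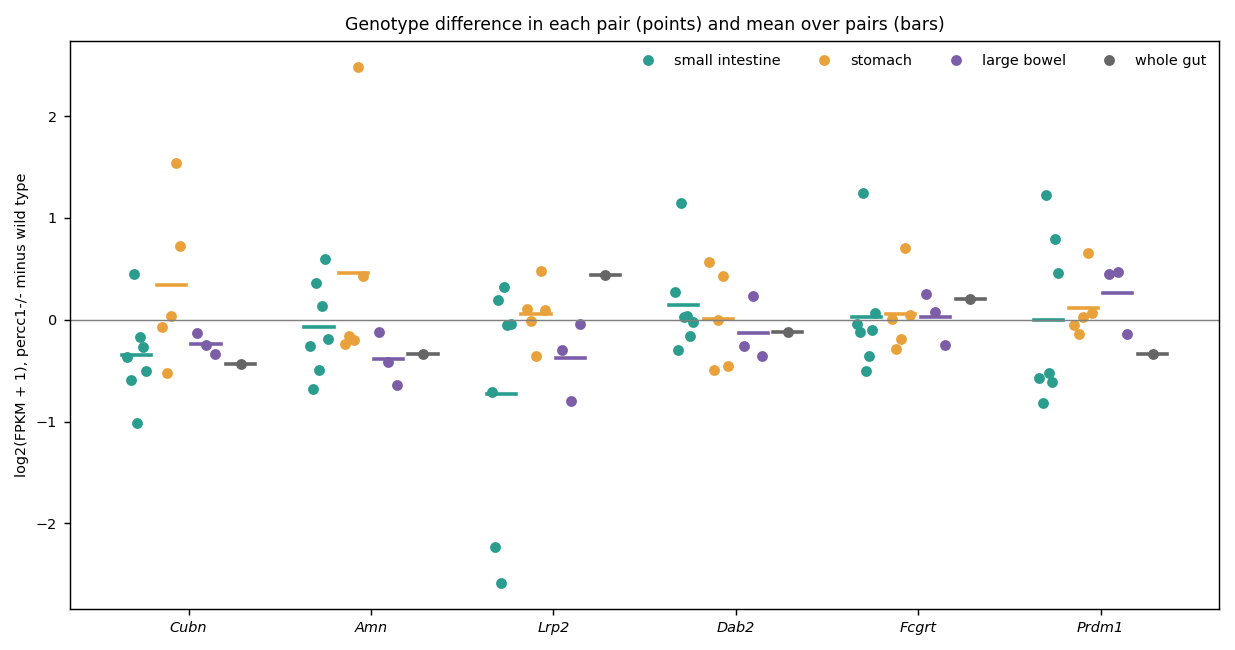
Log2(FPKM + 1) of percc1-/- minus wild type in each of the 16 pairs (points, vertical axis) for each gene (horizontal axis), coloured by organ, with bars at the organ mean. Cubn lies below 0 in 6 of 7 small intestine pairs, Lrp2 has 2 pairs below -2, the highest small intestine points of Dab2, Fcgrt and Prdm1 (1.15, 1.25 and 1.22) are the bottom intestine at P20, and the highest Amn point (2.49) is the stomach at P1.

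Over all 16 pairs limma called 0 of the 6 genes and 0 passed at an unadjusted p under 0.05, while 0.887% of 13084 genes were called. The estimates lay between -0.34 ± 0.20 for Lrp2 (adjusted p = 0.502) and 0.06 ± 0.13 for Prdm1. In stomach only Dab2, Fcgrt and Prdm1 passed the filter of a mean of at least 1 FPKM, since Cubn, Amn and Lrp2 were too low. With no filter their differences were 0.34 ± 0.29, 0.46 ± 0.42 and 0.06 ± 0.12, with limma adjusted p of 0.944, 0.944 and 0.974. Of these 3, limma called 0, with 0 at an unadjusted p under 0.05, and 0.0226% of 13266 genes were called. At P1 the percc1-/- stomach had 3.39 FPKM of Cubn against 0.506 and 4.81 of Amn against 0.0355, where 3.32% of genes were higher by at least 1 log2 unit. These values came from the library that also held Fabp6, Lct and the suckling enterocyte gene Mamdc4 (25.4 against 3.51), and their part in the difference was not tested.

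In large bowel, limma called 0 of the 6 genes over 3 pairs, with 0 at an unadjusted p under 0.05, and 0.0150% of 13369 genes were called. Cubn, Amn and Lrp2 were lower in percc1-/- in 3 of 3 pairs, with mean log2 differences of -0.24 ± 0.10, -0.39 ± 0.16 and -0.38 ± 0.21 (adjusted p = 0.528, 0.515 and 0.612). The percc1-/- colon of P5 held Atp4a, Gata4 and Lct, and their part in these differences was not tested. Over these 3 pairs limma called 2 genes in all, while 1331 had an unadjusted p under 0.05, so that little can be read from the lack of a call. An exact sign-flip test, which is a separate test, cannot give a p below 0.25 with 3 pairs. The whole gut pair of E14.5 differed by 0.44 at most (Lrp2, 3.05 in percc1-/- against 1.99). None of the endocytosis, lysosomal, immunoglobulin transport, suckling, weaned or B12 lists had a called member (0 in each list) in the genotype fit of small intestine.

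The genes with the profile most like each member were ranked by Pearson's r of log2(FPKM + 1) over the 32 libraries, among 13083 genes, as a description. The libraries share regions and fall into separate groups by organ, which sets most of these values. Amn was the gene ranked 2 for Cubn (r = 0.97, Spearman's rho = 0.90), after Tubal3 (r = 0.98) and before Osta, a subunit of the basolateral bile acid transporter (r = 0.97). Over the 14 small intestine libraries alone r was 0.49 and rho 0.52 for Cubn and Amn. Prdm1 and Dab2 shared Tfec and Mamdc4 among their 5 nearest genes. Mamdc4 (endotubin), a protein of the apical endosomes of the suckling enterocyte, had r = 0.88 with Prdm1 and 0.81 with Dab2, a median of 63.6 FPKM in small intestine and 3.69 in stomach. At P20 it stood at 58.5 FPKM in the percc1-/- bottom intestine against 8.17 in the wild type. Folr1, a folate receptor and the gene ranked 3 for Dab2 (r = 0.83), stood at 50.4 against 0.794 in that pair. Clcn5 was the gene ranked 4 for Prdm1 (r = 0.88). Fcgrt was near to Pcsk4 (r = 0.96), and Lrp2 to Igf2as (r = 0.89) and Aff2 (r = 0.87). Lrp2 had r between 0.36 (with Fcgrt) and 0.58 (with Prdm1) with the other members over 32 libraries, below the r of 0.72 or more among those other members.

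Records with no symbol lay within the positions of the members, with sums per library of 0 to 801 FPKM in Cubn, 18.7 to 204 in Dab2, 0 to 159 in Fcgrt, 0 to 67.1 in Prdm1, 0 to 11.7 in Lrp2 and 0 to 9.54 in Amn. Their strand was not examined. In the mm9 annotation Cubn lies at chr2:13197965-13413551 (minus strand), Amn at chr12:112509322-112514637 (plus), Dab2 at chr15:6249788-6390712 (plus), Lrp2 at chr2:69262397-69424122 (minus), Fcgrt at chr7:52348363-52359192 (minus) and Prdm1 at chr10:44156983-44248307 (minus).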

How the data were processed

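Gut tissue emptied of its contents was frozen, RNA was taken with TRIzol, and stranded libraries with ribosomal RNA removed were made, per the labels' protocols. The authors deposited 1 gene table per library with FPKM and its lower and upper bounds. TopHat2 2.0.13, SAMtools 0.1.18, Cufflinks 2.2.1 and mm9 are named in the submitters' processing notes, and no annotation version is named there. From these tables, records of a symbol were summed and genes in failed or merged records were treated as missing. A listed 0 is not absence: 51 of the 4643 genes averaging 10 FPKM or more had one in some library.

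Libraries were rescaled by the median ratio over 10023 genes above 1 FPKM in every library. limma 3.58.1 in R 4.3.3, with a trended and robust prior, was run on log2(FPKM + 1) for genes averaging 1 FPKM or more, with Benjamini-Hochberg adjustment and 0.05 as threshold. This scale understates changes of low genes. Tests are two-sided. Pairs are of the same region and stage per the labels, and the study has 1 library per group. The fits were tested on simulated data.

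The 6 members and all gene lists were chosen with earlier results of these data known. Other genes named are the 5 most correlated with each member and up to 4 called genes of each list per comparison. Single values at P20, P15, P10 and P5 and in the libraries that stood apart were chosen after they were seen. Python 3.11.15 with pandas 2.3.3 and matplotlib 3.10.9 was used for the rest. Some genes that these rules name are not reported here.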

Additional observations from a re-analysis of the deposited data

Results flagged for a closer look

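In the 12 sets of pairs examined (6 genes in 7 small intestine and in 5 stomach pairs), 4 had a highest pair far from the others. Chance gives such a gap in about 1 in 20 sets, but these sets share libraries and are not independent. The values are differences in log2(FPKM + 1), percc1-/- minus wild type. In the bottom intestine at P20 the difference was 1.15 for Dab2, where the next pair was at 0.27. For Fcgrt it was 1.25, where the next was at 0.06. In stomach at P1 the difference was 2.49 for Amn, with the next pair at 0.43, and 0.66 for Prdm1, with the next at 0.07. As folds of plain FPKM, Amn was at 135 in stomach at P1 and 6.17 at P5, from wild-type values of 0.0355 and 0.0713. The stomach values of P1 come from the percc1-/- library with 15.8 FPKM of Fabp6 and 8.22 of Lct, whose part in them was not tested.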

How the results depend on the processing

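Of 937 values of single genes under the alternatives, 901 kept their side of the threshold, 30 lost a call and 6 gained one. The sign changed in 59 of them, of which 0 were called in either setting. The number of members called was 0 in older against younger small intestine with a mean of at least 5 FPKM, in wild-type libraries alone, in the bottom part alone and without P20, and 0 to 1 when 1 library was left out. The filter of 5 FPKM removed Lrp2; elsewhere the cause was not tested. Bottom small intestine against large bowel gave 2 to 5 members called when 1 library was left out, with 5 without the percc1-/- colon of P5. The fits of genotype with no replicate block called 0 members in each comparison, and 29 genes in place of 15 in small intestine, 1 in place of 3 in stomach and 2 in place of 0 for the difference between ages; bottom against top with a replicate block called 0 members. Exact sign-flip permutation tests over pairs gave 0 of 24 p-values under 0.05, but 12 of them, in stomach and large bowel, cannot fall below 0.0625 or 0.25.

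Counts of all genes called moved more. Over the other settings they ranged from 2 to 29 for genotype in small intestine, from 59 to 122 over all pairs (116), from 1 to 7 in stomach, from 0 to 7 in large bowel (2), from 0 to 53 for bottom against top (1), from 16 to 817 for age (758), from 3738 to 6942 for stomach (5760) and from 2219 to 3541 for large bowel against bottom intestine (3408). With 1 pair or library left out the ranges were 2 to 19, 68 to 184, 1 to 3, 0 to 1, 0 to 7, 243 to 1027, 4602 to 5830 and 1588 to 3906. The alternatives without P20, without libraries or pairs of P1, without rectum, without top intestine at P1 and P5 and, for stomach, in wild type alone were chosen after seeing the data. The labels give 1 library per group and the files no counts, so the depth behind low values, such as Lrp2 or Cubn and Amn in stomach, is unknown.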
